A study of Mus musculus with 12 samples.

Results

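The genes described here make cholesterol in the mouse liver, control that synthesis through the transcription factor SREBP2, or move, esterify and take up sterols. They were listed by name with earlier results of these data known, so their counts beside shares of all genes are description and no test. The list holds 29 genes, and 28 of them have transcripts among the 22870 genes of the table. The exception is Mvd, the mevalonate diphosphate decarboxylase, which was not analysed here. All 28 averaged 0.5 FPKM or more over the livers, the level set for testing, and none was left out. Sqle reached that level only through the livers on the normal diet, as given below. FPKM are fragment numbers divided by transcript length and library size, so levels of different genes can be set side by side.

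Livers came from 12 male C57BL/6J mice with no genetic change, 3 per group, aged 21 weeks. After 1 week on chow, every mouse spent 16 weeks on its diet and was killed after a 12 h fast. The ND group ate a normal diet, the HFD group a high-fat diet, the CLE group the same high-fat diet with 1.5% by weight of an ethanol extract of Chrysanthemum morifolium leaves, and the LU group the high-fat diet with 0.003% luteolin, a flavone. The extract is a mixture, the amounts of extract and luteolin differ, and the authors chose 3 representative livers per group for sequencing by criteria not given in the sources used here.

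Cholesterol is built from acetyl-CoA through mevalonate, the isoprenoid diphosphates and squalene, and then through a series of sterols. The liver is a main site of this synthesis. When sterols in the endoplasmic reticulum are scarce, the escort protein SCAP carries SREBP2 to the Golgi, where it is cut, and the released part enters the nucleus and switches on most genes of the pathway. When sterols are plentiful, INSIG proteins hold SCAP and SREBP2 back.

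The nuclear part of SREBP2 binds sterol regulatory elements, commonly beside a CCAAT box bound by nuclear factor Y. The letters TCACNCCAC and CCAAT were looked for on both strands in RefSeq promoter windows (GRCm38.p6) of 300 bases, 250 before and 50 after the start of transcription. These windows exist for 22 of the 29 members, and for Fdps, Fdft1, Sqle, Stard4, Npc1, Soat2 and Scarb1 there is none in the set used here. TCACNCCAC stood in 1.24% of all 32851 windows and in 1 member, Hmgcs1, from position -137 to -129. CCAAT stood in 37.4% of all windows and in 71.4% of the 28 windows of the members, some of which have several. These were windows of 20 of the 22 members. The exceptions were Acat2 and Scap. No test was made of these shares, and a match of letters is not a binding site. 4 windows are shown 5′ to 3′ with the matched letters in capitals, that of Hmgcs1 for its sterol element core, which reads TCACCCCAC, and those of Idi1, Cyp51 and Tm7sf2 because these enzymes were among the members that differed most between diets. The other capitals are CCAAT or its complement.
Hmgcs1, chr13:119690101-119690400, plus strand: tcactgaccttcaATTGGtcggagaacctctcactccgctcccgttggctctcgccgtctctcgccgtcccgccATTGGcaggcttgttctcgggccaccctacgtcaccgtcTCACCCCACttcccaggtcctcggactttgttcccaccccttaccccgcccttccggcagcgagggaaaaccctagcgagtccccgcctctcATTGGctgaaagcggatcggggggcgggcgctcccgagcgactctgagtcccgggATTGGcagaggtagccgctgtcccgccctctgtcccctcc
Idi1, chr13:8885356-8885655, plus strand: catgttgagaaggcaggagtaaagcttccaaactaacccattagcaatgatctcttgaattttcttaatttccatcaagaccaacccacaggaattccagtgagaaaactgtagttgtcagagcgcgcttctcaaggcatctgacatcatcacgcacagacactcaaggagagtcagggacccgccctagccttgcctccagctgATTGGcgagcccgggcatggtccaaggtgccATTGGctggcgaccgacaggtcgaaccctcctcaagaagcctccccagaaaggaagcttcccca
Cyp51, chr5:4104648-4104947, minus strand: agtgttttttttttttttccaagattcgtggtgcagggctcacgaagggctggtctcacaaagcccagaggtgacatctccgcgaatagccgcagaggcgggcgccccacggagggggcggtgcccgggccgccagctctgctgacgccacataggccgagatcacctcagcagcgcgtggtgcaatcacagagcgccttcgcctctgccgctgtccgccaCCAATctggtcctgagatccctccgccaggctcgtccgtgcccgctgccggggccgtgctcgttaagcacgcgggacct
Tm7sf2, chr19:6067801-6068100, minus strand: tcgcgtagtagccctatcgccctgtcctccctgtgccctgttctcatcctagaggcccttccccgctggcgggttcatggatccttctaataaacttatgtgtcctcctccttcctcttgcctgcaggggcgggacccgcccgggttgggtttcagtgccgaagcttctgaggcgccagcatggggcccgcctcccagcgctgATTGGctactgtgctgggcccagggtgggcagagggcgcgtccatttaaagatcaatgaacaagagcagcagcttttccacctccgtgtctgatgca

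Levels spanned a wide range in ND livers. Insig2 was highest at 388 ± 108 FPKM (SD, n = 3), followed by the late sterol enzymes Ebp at 135 ± 14.6 and Sc5d at 129 ± 18.9, which did not differ beyond their spread. Scarb1, the receptor that takes cholesterol esters from high-density lipoprotein, stood at 79.5 ± 11.4 and Tm7sf2 at 55.4 ± 14.1. At the other end were Ggps1 at 1.62 ± 0.137, Soat1 at 2.02 ± 0.756, Mvk at 3.56 ± 0.925 and Sqle at 3.62 ± 1.61.

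The first comparison asks what the high-fat diet changed. Enzymes before and after squalene and the sterol transfer protein Stard4 were lower in HFD than in ND livers, and the sterol esterifying enzyme Soat2 was higher. Of the 28 members tested, 9 fell and 1 rose, and 18 did not pass. Among all 11994 genes tested, 2.03% were called lower and 9.73% higher in HFD livers. These shares depend on the scaling of the libraries. With median-of-ratios scaling 10 members fell and 0 rose, beside 4.14% lower and 5.06% higher of all genes. Genes were called at an adjusted p under 0.05 (limma on log2(FPKM + 1), Benjamini-Hochberg over all genes). On this scale the fold change of low genes is understated. For 9 members every HFD liver lay below every ND liver, which was so for 7.46% of all genes tested. The median log2 fold change of the members was -0.27, beside 0.11 over all genes tested. ND mouse 3 had the highest value of 8 of the 9 members that fell, and without it the same 10 members passed and the median was -0.12. In that fit 1.61% of all genes were called lower and 7.8% higher, with a median of 0.14.

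**Figure D1:**
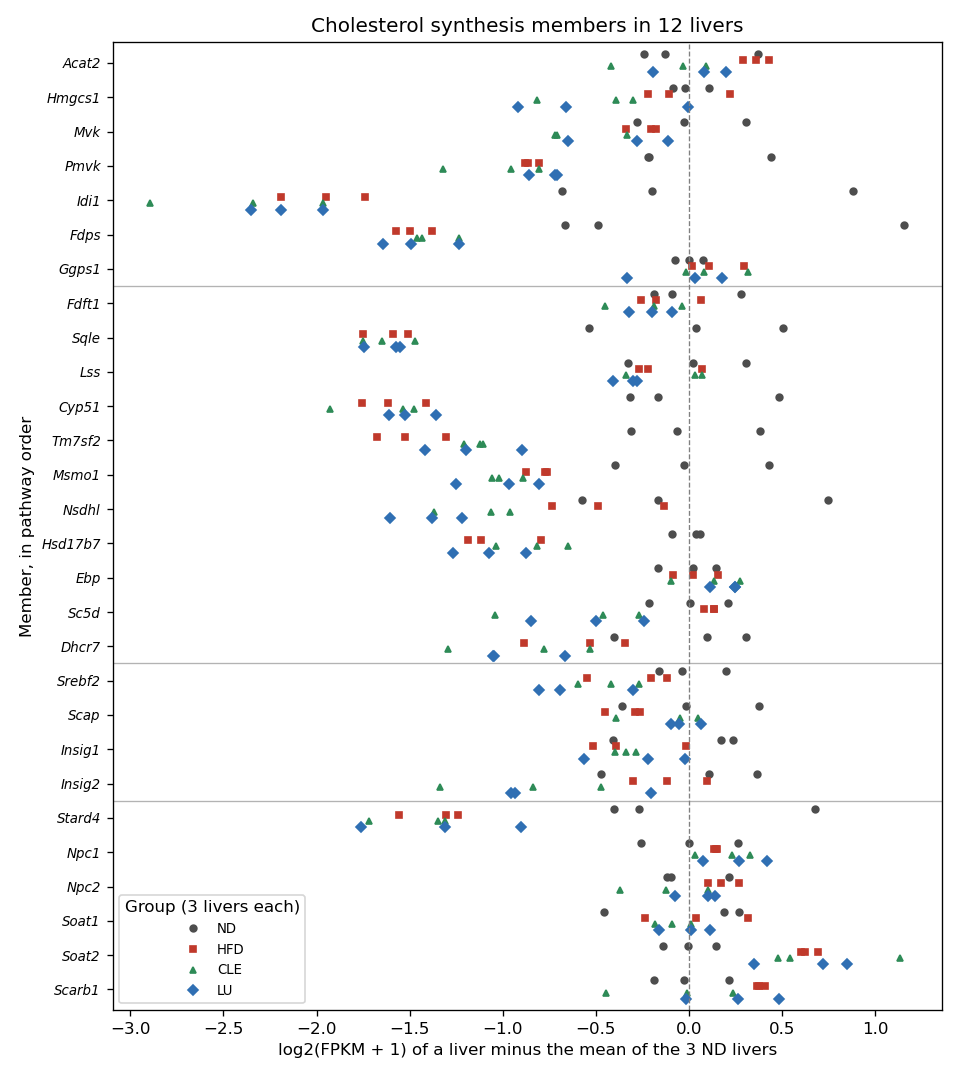
Each point is 1 liver, placed by its log2(FPKM + 1) minus the mean of the 3 ND livers, for the 28 members in pathway order (top to bottom), with grey circles for ND, red squares for HFD, green triangles for CLE and blue diamonds for LU. Horizontal lines part the mevalonate steps, the steps from squalene on, the SREBP2 regulators and the trafficking genes. For Idi1, Sqle and Cyp51 the HFD, CLE and LU livers lie together to the left of all ND livers, and for Soat2 they lie to the right.

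In the mevalonate part, 3 of 7 measured members fell and none rose. Idi1 (chr13:8885501-8892451), which converts isopentenyl diphosphate into its reactive isomer, measured 9.11, 28.8 and 13.1 FPKM in ND mice 2, 3 and 4 and 2.54, 3.84 and 3.2 in HFD mice 12, 15 and 18. It measured 3.15, 1.18 and 2.2 FPKM in CLE mice 2, 4 and 11 and 2.17, 2.55 and 3.14 in LU mice 2, 3 and 8. The ND livers were all above the other 9, with ND mouse 3 far above the rest. Between HFD and ND its log2 fold change was -1.96 (95% interval -2.67 to -1.25, adjusted p = 0.0025, limma), and the ND mean was 5.31 times the HFD mean. Without ND mouse 3 it was 3.47 times the HFD mean, with a log2 fold change of -1.52 (adjusted p = 0.0038).

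Fdps (chr3:89093588-89101959), the synthase that joins isoprenoid units into farnesyl diphosphate, measured 16.9, 54.9 and 14.8 FPKM in the ND livers and 7.89, 8.63 and 7.44 in the HFD livers, in the same order of mice. In CLE livers it stood at 9.65, 8.28 and 8.13 FPKM and in LU livers at 9.66, 7.04 and 7.9. Again ND mouse 3 was far the highest and no liver of the other groups reached the ND range. HFD livers differed by -1.49 on the log2 scale (interval -2.23 to -0.74, adjusted p = 0.016), and without ND mouse 3 by -0.91 (adjusted p = 0.0029). It did not pass when HFD mouse 12 or 18 was left out, at -1.48 and -1.44. The annotated gene Gm43738 overlaps Fdps on the same strand over 7512 bases, and fragments from both cannot be told apart there.

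Pmvk (chr3:89454541-89469013), which adds the second phosphate to mevalonate, measured 8.87, 14.6 and 8.9 FPKM in ND livers and 5.25, 5.58 and 5.32 in HFD livers. CLE livers gave 4.93, 5.58 and 3.61 FPKM and LU livers 6.04, 5.34 and 5.98. The HFD values were close together and all under the ND values, and the CLE and LU values lay around them. The HFD difference was -0.85 on the log2 scale (interval -1.23 to -0.47, adjusted p = 0.0088).

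The other mevalonate enzymes did not pass. Hmgcs1, which makes the precursor of mevalonate and carries the sterol element core shown above, had 42 ± 2.88 FPKM in ND and 41.2 ± 6.85 in HFD livers, with an interval of the log2 fold change from -0.49 to 0.42. Acat2, the first thiolase of the route, had 13.9 ± 3.5 and 17.8 ± 0.941 FPKM (adjusted p = 0.21). Mevalonate kinase Mvk had 3.56 ± 0.925 and 2.81 ± 0.229 FPKM, and Ggps1, which makes the geranylgeranyl diphosphate used to modify proteins, had 1.62 ± 0.137 and 1.9 ± 0.293. The intervals of these 4 reached no lower than -0.62, which lies within the interval of Pmvk and above those of Idi1 and Fdps.

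From squalene on, 5 of 11 members fell in HFD livers and none rose. Sqle (chr15:59315077-59331192), squalene epoxidase, the enzyme that adds the first oxygen, measured 2.05, 5.27 and 3.54 FPKM in ND livers and 0.318, 0.471 and 0.558 in HFD livers. CLE livers gave 0.597, 0.412 and 0.318 FPKM and LU livers 0.323, 0.488 and 0.509. All 9 livers on the high-fat diet were below 1 FPKM and no ND liver was. Its means were 3.62 FPKM in ND, 0.449 in HFD, 0.442 in CLE and 0.44 in LU livers. It thus passed the filter of 0.5 FPKM only through the group where it was high, and its call is not independent of that filter. It also passed with no filter. The ND mean was 8.07 times the HFD mean, and the log2 fold change on the log2(FPKM + 1) scale was -1.62 (interval -2.06 to -1.18, adjusted p = 3.8e-04). With a pseudocount of 0.1 in place of 1 it was -2.69.

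Cyp51 (chr5:4081145-4104746), the lanosterol demethylase, measured 11.4, 18.5 and 10.2 FPKM in ND livers and 3.12, 4.24 and 3.55 in HFD livers. It stood at 4, 2.66 and 3.81 FPKM in CLE livers and at 3.57, 4.44 and 3.84 in LU livers. The lowest ND liver was more than the highest of the other 9, and those 9 overlapped one another. HFD against ND gave -1.59 (interval -2.02 to -1.17, adjusted p = 3.2e-04).

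Tm7sf2 (chr19:6062821-6068373), the sterol reductase that acts after Cyp51, measured 51.8, 70.9 and 43.5 FPKM in ND livers and 16.3, 18.2 and 21.4 in HFD livers. CLE livers gave 22.9, 24.7 and 24.4 FPKM and LU livers 28.7, 23.1 and 19.7. All CLE livers were above all HFD livers, LU and HFD livers overlapped, and all ND livers were the highest. Its HFD difference was -1.50 (interval -1.88 to -1.13, adjusted p = 2.1e-04). In the deposited table these transcripts carry the name of Vps51, a neighbour that overlaps Tm7sf2 over 532 bases on the same strand, so the gene was found by its reference transcripts.

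Msmo1 (chr8:64718139-64733792), the methyl sterol oxidase, measured 9.38, 17.4 and 12.4 FPKM in ND livers and 6.45, 7.05 and 7.01 in HFD livers. It measured 6.38, 5.57 and 5.73 FPKM in CLE livers and 6.82, 4.75 and 6 in LU livers. No liver on the high-fat diet reached the lowest ND value. The difference between HFD and ND was -0.80 (interval -1.19 to -0.42, adjusted p = 0.013), and it did not pass without HFD mouse 12, at -0.77, or when the transcript with the highest mean stood for the gene, at -0.76 (adjusted p = 0.097).

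Hsd17b7 (chr1:169949535-169969241), a reductase of the demethylation steps, measured 22.7, 20.3 and 22.3 FPKM in ND livers and 9.47, 12.1 and 8.98 in HFD livers. CLE livers gave 13.5, 11.9 and 10.1 FPKM and LU livers 9.8, 8.45 and 11.4. Here ND mouse 3 was the lowest of the ND livers, and the ND values were close together. The log2 fold change was -1.04 (interval -1.34 to -0.73, adjusted p = 6.6e-04), and when 1 transcript, or the known transcripts only, stood for the gene it was -0.99 and -0.98 and did not pass.

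The remaining 6 members from squalene on did not pass between HFD and ND. Squalene synthase Fdft1 had 13.4 ± 2.5 FPKM in ND and 12.1 ± 1.56 in HFD livers, and lanosterol synthase Lss 4.08 ± 1.1 and 3.56 ± 0.606. Nsdhl, a dehydrogenase of the demethylation steps, had 10.3 ± 5.56 and 6.79 ± 1.65 FPKM, with the groups overlapping. The sterol isomerase Ebp had 135 ± 14.6 and 138 ± 11.3 FPKM and the desaturase Sc5d 129 ± 18.9 and 138 ± 3.22, and their log2 fold changes of 0.03 and 0.11 had intervals within -0.31 and 0.54. Dhcr7, a reductase of the last step, had 14.9 ± 3.84 and 9.51 ± 1.94 FPKM (log2 fold change -0.59, adjusted p = 0.11). It passed with median-of-ratios scaling of the libraries.

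**Figure D2:**
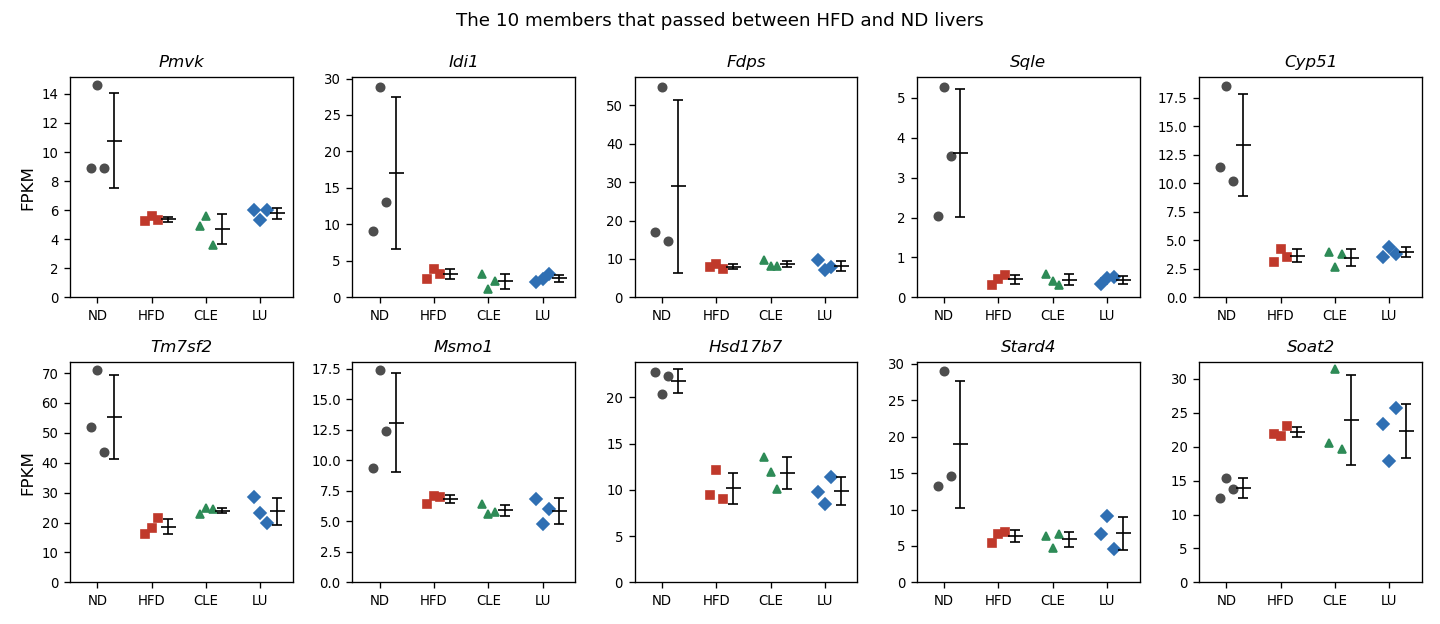
FPKM of each liver (points) with the mean ± SD of its 3 livers (bar beside them) by group, for the 10 members that passed between HFD and ND livers, each panel with its own axis from 0. In 9 panels all ND livers are above all HFD livers, in most with ND mouse 3 (the middle point) at the top, and in the Soat2 panel all HFD livers are above all ND livers.

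Among the trafficking genes, Stard4 fell and Soat2 rose. Stard4 (chr18:33199355-33213862), a soluble sterol carrier, measured 13.2, 29 and 14.6 FPKM in ND livers and 5.38, 6.62 and 6.96 in HFD livers. CLE livers gave 6.39, 4.71 and 6.59 FPKM and LU livers 6.58, 9.07 and 4.55. The ND livers were again above all others, and the HFD difference was -1.37 on the log2 scale (interval -1.95 to -0.79, adjusted p = 0.0067).

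Soat2 (chr15:102150526-102163469), the acyltransferase with which hepatocytes esterify cholesterol, measured 12.5, 15.4 and 13.8 FPKM in ND livers and 21.9, 21.5 and 23 in HFD livers. CLE livers gave 20.6, 31.5 and 19.7 FPKM and LU livers 23.4, 17.9 and 25.7. All 9 livers on the high-fat diet were above the ND livers, and CLE mouse 4 was the highest. Its difference was 0.64 (interval 0.27 to 1.01, adjusted p = 0.03). It passed in 5 of the 12 alternative analyses and in 7 of 12 fits without 1 liver, falling to 0.49 with median-of-ratios scaling, which did not pass. That scaling moved the median of all tested genes from 0.11 to -0.01, and the share of called genes that were higher in HFD livers from 82.8% to 55%.

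The other 4 did not pass. Npc1 and Npc2, which export cholesterol from lysosomes, had 38.1 ± 7.05 and 17.1 ± 2.45 FPKM in ND livers and 41.7 ± 0.209 and 19.4 ± 1.19 in HFD livers. Soat1, the esterifying enzyme of most other cell types, had 2.02 ± 0.756 and 2.07 ± 0.586 FPKM. Scarb1 had 79.5 ± 11.4 and 103 ± 1.87 FPKM, with all HFD livers above all ND livers (log2 fold change 0.38, adjusted p = 0.18).

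Of the regulators themselves 0 of 4 passed between HFD and ND, beside 11.8% of all genes. An unadjusted p of 0.05 (limma) was passed by 0 of 4, beside 26.9% of all genes. So few genes cannot be set apart from these shares. All 4 had lower means on the log2 scale in HFD livers, with a median of -0.30, and intervals that reached down to between -0.64 and -0.71. Srebf2, which encodes SREBP2, measured 10.4, 12.4 and 9.45 FPKM in ND livers, 6.99, 9.16 and 9.75 in HFD livers, 8.7, 7.75 and 6.73 in CLE livers and 6.22, 5.69 and 8.5 in LU livers. HFD and ND livers overlapped, and the CLE and LU livers were all below the ND livers. Its difference between HFD and ND was -0.29 (interval -0.64 to 0.06, adjusted p = 0.28). RNA levels say nothing of how much SREBP2 protein was cut.

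Scap measured 25.4, 43 and 32.5 FPKM in ND livers, 23.8, 26.7 and 27.2 in HFD livers, 31.8, 34 and 24.8 in CLE livers and 34.4, 30.7 and 31.6 in LU livers. The HFD livers were the lowest group on average, and they overlapped the ND livers. Insig1, itself a target of SREBP2 in many cells, measured 17.2, 27.4 and 26.2 FPKM in ND livers, 22.9, 17.4 and 15.9 in HFD livers, 18.1, 17.3 and 18.8 in CLE livers and 22.8, 19.7 and 15.3 in LU livers. All 4 groups overlapped for Insig1, with an interval of HFD against ND from -0.71 to 0.10.

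Insig2 (chr1:121304353-121332589), the retention protein that prevails in the liver, measured 406, 272 and 487 FPKM in ND livers, 347, 403 and 306 in HFD livers, 272, 149 and 211 in CLE livers and 197, 194 and 327 in LU livers. HFD livers fell within the ND range, and CLE livers were all below the HFD livers. Its difference was -0.11 between HFD and ND (interval -0.68 to 0.46) and -0.77 between CLE and HFD (interval -1.34 to -0.20, adjusted p = 0.085).

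The sum hides 3 sets of Insig2 transcripts, split by the nearest RefSeq start site on the minus strand of chromosome 1 after the values had been seen, so no test was made. Transcripts from the upstream site at 121332589 summed to 252, 169 and 362 FPKM in ND, 201, 241 and 159 in HFD, 148, 70.1 and 126 in CLE and 106, 114 and 204 in LU livers. Those from the site at 121328024 summed to 89 ± 26.8 FPKM in ND, 61.6 ± 12.5 in HFD, 55.7 ± 22.6 in CLE and 60.3 ± 13.5 in LU livers. Those from the downstream site at 121327678 summed to 34.4, 27.8 and 53.3 FPKM in ND, 96.1, 102 and 72.3 in HFD, 47.3, 47.3 and 25.4 in CLE and 37.9, 28.8 and 47.3 in LU livers. The downstream set was thus highest in all 3 HFD livers, while CLE, LU and ND livers overlapped. Cufflinks shares fragments out among overlapping transcripts by estimation, so these sums are less certain than the gene's, and the middle and downstream sites lie close together.

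**Figure D3:**
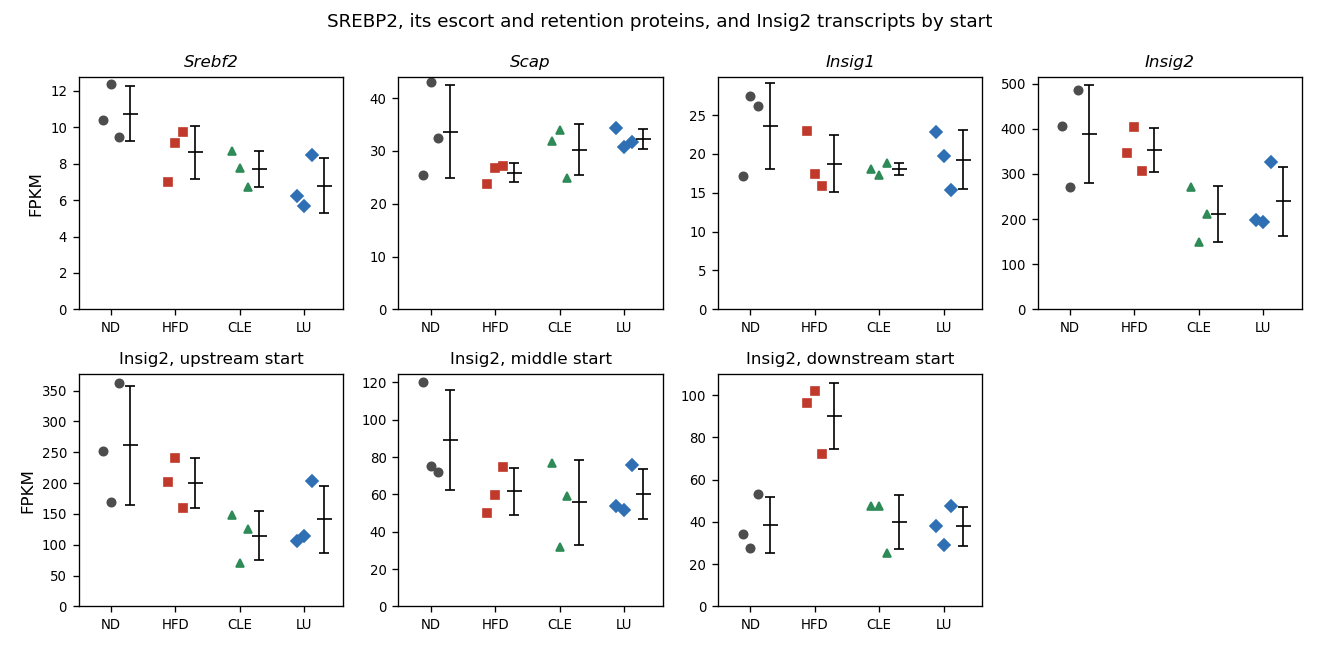
FPKM of each liver (points) with the mean ± SD of its 3 livers (bar beside them) by group, for Srebf2, Scap, Insig1 and Insig2 (top) and for the Insig2 transcripts nearest to the upstream, middle and downstream start site (bottom). HFD and ND livers overlap in each top panel, and the HFD livers, at 72.3 to 102 FPKM, are above all others in the downstream panel.

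The next comparisons ask what the leaf extract and luteolin changed on the high-fat diet. No member passed in either. Between CLE and HFD livers 0 of 28 members passed, beside 5.67% of all genes tested. An unadjusted p of 0.05 was passed by 7 members (25%), beside 29.4% of all genes. Between LU and HFD livers 0 of 28 passed, beside 0.992% of all genes tested, and 4 (14.3%) passed an unadjusted p of 0.05, beside 20.4% of all genes. The members' shares are thus no higher than those of all genes in either comparison. Both comparisons use the same HFD livers, so their values are not independent.

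The 9 members that fell with the high-fat diet did not pass against HFD livers in either group. In CLE against HFD their log2 fold changes lay between -0.44, for Idi1, and 0.36, for Tm7sf2. In LU against HFD they lay between -0.21, for Idi1, and 0.33, for Tm7sf2. For Sqle the intervals were -0.45 to 0.43 in both comparisons. For Cyp51 they were -0.48 to 0.37 with CLE and -0.33 to 0.52 with LU. A return of either gene to its ND level lies outside these intervals, while smaller changes lie within them. Other intervals with CLE were wider, such as -1.15 to 0.27 for Idi1 and -0.64 to 0.86 for Fdps.

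Sc5d had the lowest adjusted p of the members with CLE, and Nsdhl with LU. The desaturase Sc5d stood at 61.6 to 106 FPKM in CLE livers and 70.4 to 108 in LU livers, all below the HFD livers at 135 to 140. Its log2 fold change was -0.70 with CLE (interval -1.13 to -0.28, adjusted p = 0.052) and -0.64 with LU (adjusted p = 0.12). Nsdhl stood at 3.07 to 4.39 FPKM in CLE livers and 2.45 to 3.52 in LU livers, all below the HFD livers at 5.31 to 8.57, with -0.68 (adjusted p = 0.12) and -0.95 (adjusted p = 0.11).

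Further members had lower means with unadjusted p under 0.05. With CLE these were Acat2 at -0.48, Hmgcs1 at -0.47, Insig2 at -0.77, Npc2 at -0.31 and Scarb1 at -0.46, and with LU they were Hmgcs1 at -0.49 and Insig2 at -0.59. No member had a higher mean at that level. The count with CLE rested on single livers. It was 5 without CLE mouse 2 (Acat2, Sc5d, Insig2, Npc2 and Scarb1), where 18.9% of all genes passed. It was 1 (Sc5d) without LU mouse 3, where 4.48% of all genes passed. With median-of-ratios scaling or quantile normalization it was also 1 (Sc5d), beside 6.85% and 8.61% of all genes.

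CLE and LU livers were also set against each other, although their doses are not matched. Of the 28 members 0 passed, beside 0.00834% of all genes tested, and 0 passed an unadjusted p of 0.05 (limma), beside 4.26% of all genes. The largest difference, for Scarb1, was -0.32 (interval -0.69 to 0.06).

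**Figure D4:**
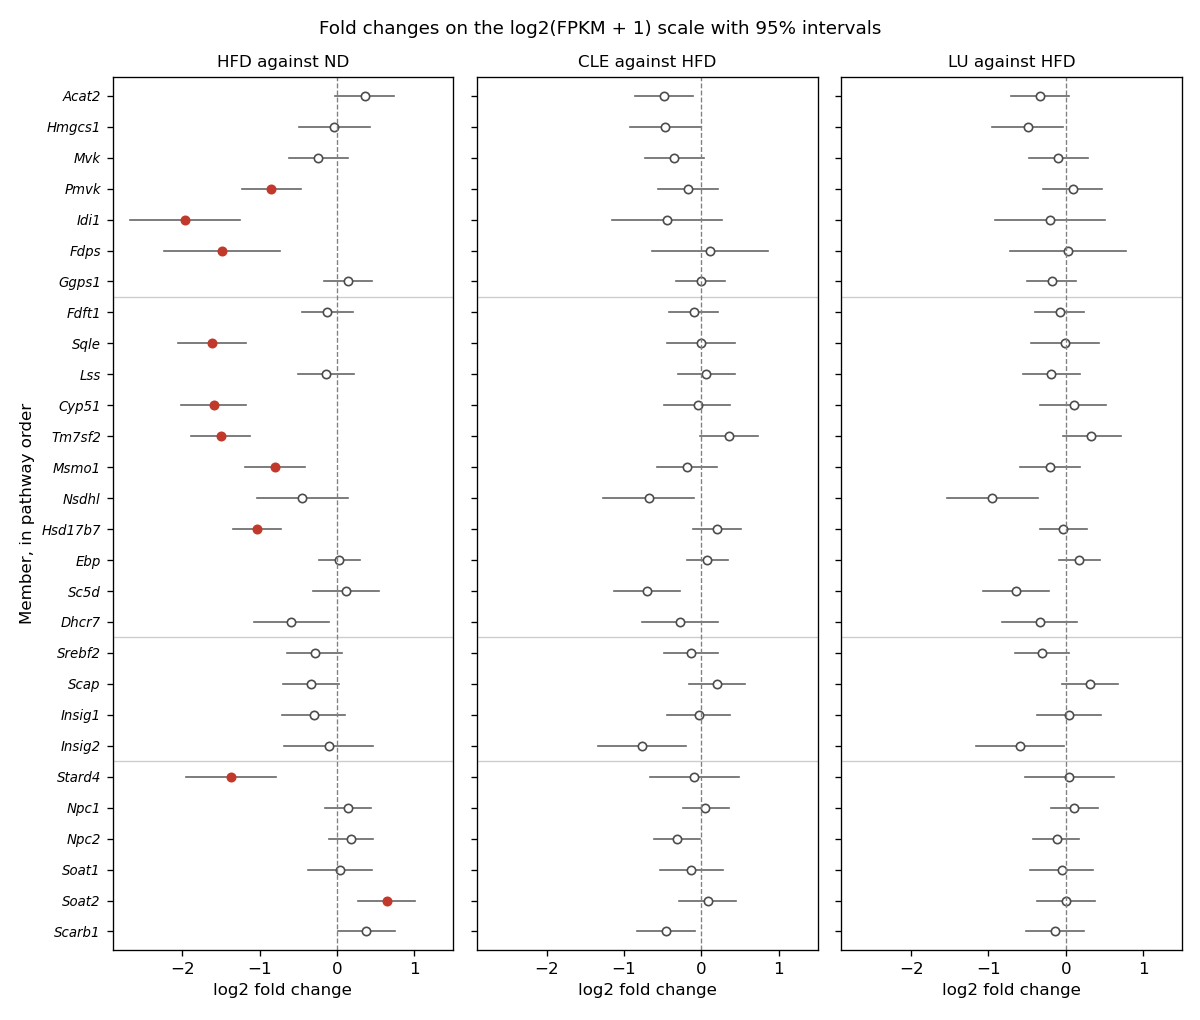
Log2 fold changes on the log2(FPKM + 1) scale (points) with 95% intervals (lines) for the 28 members in pathway order, for the effects of HFD (left), CLE (middle) and LU (right), with filled points for members that passed. The 10 filled points are all in the left panel (against ND), and in the middle and right panels (against HFD) Sqle and Cyp51 lie at 0 within 0.10.

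Set against the normal diet, the livers given extract or luteolin were low in the same enzymes and in a few late ones. Between CLE and ND 14 members fell and 1 rose, beside 6.12% and 20.6% of all genes tested. Between LU and ND 12 fell and 1 rose, beside 3.69% and 10.8%. With median-of-ratios scaling 16 members fell and 1 rose with CLE, beside 14% lower and 10.2% higher of all genes, and 14 fell and 0 rose with LU, beside 8.92% and 6.09%. Both use the ND livers that also served for HFD, so the 3 sets of values are given side by side and not counted as separate evidence. Soat2 was the member that rose, at 0.72 with CLE and 0.64 with LU. With LU it passed in 9 of 14 alternatives and 8 of 12 fits without 1 liver, and with CLE in 12 of 14 (0.43 with GC correction, which did not pass) and 12 of 12.

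The 9 members that fell in HFD livers also fell in both of these comparisons. Idi1 stood at -2.40 with CLE and -2.17 with LU, Sqle at -1.62 in both, Cyp51 at -1.65 and -1.50, and Stard4 at -1.46 and -1.33. Beyond these, Nsdhl passed at -1.13 (adjusted p = 0.013) with CLE and -1.40 (adjusted p = 0.0091) with LU, and Dhcr7 at -0.87 (adjusted p = 0.017) and -0.92 (adjusted p = 0.021). In HFD against ND these 2 stood at -0.45 and -0.59. Nsdhl passed in all 12 fits without 1 liver in both comparisons. It did not pass with its transcript of highest mean (-0.78 with CLE, -0.79 with LU) or with known transcripts only (-0.78 in both). Dhcr7 passed in 9 of 12 fits without 1 liver with CLE and in 8 with LU. Mvk at -0.59, Sc5d at -0.59 and Insig2 at -0.88 passed with CLE against ND, where LU stood at -0.35, -0.53 and -0.70 (adjusted p = 0.18, 0.081 and 0.087). These calls rested on single livers and settings. Of 12 fits without 1 liver, Mvk passed in 8, Sc5d in 4 (-0.36 without CLE mouse 4) and Insig2 in 8, and with its transcript of highest mean Mvk was at -0.03. Srebf2 passed with LU at -0.60 (adjusted p = 0.031), in 7 of 12 fits without 1 liver and 10 of 14 alternatives, where CLE stood at -0.43 (adjusted p = 0.067).

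The groups also differed in clock genes, HFD and ND livers among them. Of 14 clock genes 9 passed in CLE against ND and 9 in LU against ND, beside 26.7% and 14.5% of all genes. Between HFD and ND 3 passed, all higher in HFD livers, beside 11.8% of all genes. A score from 14 genes of the circadian clock (their first principal component, 69.2% of their variance) ran from -5.90 to -0.98 in ND, -2.45 to 0.88 in HFD, 1.17 to 3.78 in CLE and 0.53 to 3.42 in LU livers. With the score as a covariate 1 of 28 members, Tm7sf2, passed in each of CLE and LU against ND, beside 0.1% and 0.133% of all genes, so nearly all calls of the table were lost. The score of every CLE and LU liver was above that of every ND liver, so the adjusted fold changes are extrapolated. Of the members called without the score, 14 of 15 with CLE and 13 of 13 with LU kept their sign. In each comparison 10 were at least as far from 0, and the median of all members went from -0.54 to -0.55 and from -0.53 to -0.57. ND mouse 3, the highest ND liver for 8 of the 9 members that fell in HFD livers, also had the highest ND score, at -0.98. A part of the clock in these differences was not tested. Idi1 stood at -2.72 with CLE and -2.50 with LU. In HFD against ND all 9 members that fell still passed with the score, beside 0.917% of all genes called lower (2.03% without the score). HFD and ND scores overlapped only through ND mouse 3, and a part of the clock in this comparison was not tested either. The time of day at which each liver was taken is not given in the sources used here, and the score cannot be told apart from the groups.

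Among the 4 groups together, 13 of 28 members passed the moderated F test, beside 23.6% of all genes tested. They were the 9 that fell with the high-fat diet, Soat2, Nsdhl, Sc5d and Dhcr7.

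Of the wider pathway, 53 further genes were listed and 52 tested. Between HFD and ND 6 of them rose and 2 fell, or 15.4% called, beside 11.8% of all genes. The largest were Srebf1, the sister gene of Srebf2 that drives fatty acid synthesis, at 1.72 (11 to 14.5 FPKM in ND and 40.1 to 50.4 in HFD livers), and Gramd1b, which carries cholesterol from the plasma membrane to the endoplasmic reticulum, at 1.23 (0.729 to 0.937 and 2.99 to 3.81 FPKM). Pgrmc1, a heme protein that binds Cyp51 and related enzymes, was at 0.76 and the electron donor Cyb5a at 0.68. Of the 6 listed genes that SREBP2 is known to regulate and that are no members, 0 passed. An unadjusted p of 0.05 (limma) was passed by 0 of them, beside 26.9% of all genes, and they are too few to be set apart from that share.

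Between CLE and HFD 2 of the 52 rose and 4 fell, or 11.5% called, beside 5.67% of all genes. The largest values were those of Cyb5b, an electron carrier of the outer mitochondrial membrane, at -0.81, and the prelamin protease Zmpste24 at -0.80. Next came Gramd1a, a relative of Gramd1b, at 0.79, and Gramd1b at -0.68. Gramd1b stood at 1.23 to 2.04 FPKM in CLE livers, between the ND and the HFD livers. Between LU and HFD 1 fell, or 1.92% called, beside 0.992% of all genes. It was Cyb5b, at -0.78 (55.7 to 65.6 FPKM against 93.2 to 122).

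In whole liver, fewer cells of a type and less RNA per cell cannot be told apart. Of 10 hepatocyte markers 0 passed between HFD and ND and 2 passed an unadjusted p of 0.05 (limma), beside 11.8% and 26.9% of all genes. Their summed level was 32000 to 36500 FPKM in ND and 36400 to 49600 in HFD livers. Of 10 Kupffer cell and macrophage markers 5 rose (155 to 174 and 220 to 322 FPKM summed), and of 8 stellate cell and fibroblast markers 6 rose (74.4 to 106 and 135 to 169). Of all genes tested 9.73% rose. The 5 adipocyte markers summed to 0.995 to 1.67 FPKM in ND and 59 to 104 in HFD livers, and 1 of them was high enough to be tested and rose. The part of these cells in the members' differences was not tested. The deviations of the libraries also ran with GC content, with Spearman's correlation across 11931 genes, which are not independent replicates, from -0.37 to -0.14 in ND and HFD livers and from 0.16 to 0.47 in CLE and LU livers. After a correction for it the same 9 members passed as lower in HFD than in ND livers, beside 4.31% of all genes, and Soat2 did not pass. Against ND, 16 members passed as lower with CLE and 13 with LU, beside 10.1% and 5.95% of all genes, and 0 as higher.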

How the data were processed

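RNA of 12 livers was sequenced as paired reads of 100 bases. Per the labels and methods, the authors used CASAVA 1.8.2, Bowtie2 2.2.3, TopHat2 2.0.12 and Cufflinks 2.2.1. The deposited FPKM cover 152210 transcripts, assembled over 30 samples as the table states. Their methods name DEGES and edgeR normalization factors without saying whether the FPKM include them. Genome build and strand setting are not given in the sources used here. Names and coordinates are from GENCODE M21 on GRCm38, whose ends 87.6% of the known transcripts share. FPKM hold no read counts, so depth and counting error are unknown. Listed zeros can be failed estimates (albumin is at 0 in 11 livers).

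FPKM were summed per gene over 142558 transcripts by their reference transcript, since the deposited name column puts Tbce transcripts under Ggps1 and those of Tm7sf2 under Vps51. Left out were 9652 transcripts, most with no reference. Groups were taken from the sample titles, which abbreviate CLE otherwise, and mice of a group were treated as replicates. R 4.3.3 and limma 3.58.1 compared the groups on log2(FPKM + 1) with the variance trend, all livers in 1 fit (12.7 degrees of freedom) and Benjamini-Hochberg adjustment over the 11994 genes averaging 0.5 FPKM or more. All tests are two-sided. Exact tests, which reach p = 0.1 at best with 3 mice per group, were not used. The fit was tested on simulated data.

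All members are named, with values in every liver for those that passed in one of the comparisons of HFD with ND, CLE with HFD or LU with HFD and for the 4 regulators, and at most 4 further pathway genes per comparison, by size. The Insig2 start sites were looked at after values were seen. Members and lists were chosen with earlier results of these data known. Alternatives were a pseudocount of 0.1, no filter, a mean of at least 5 FPKM, other scalings, 2 groups alone, no variance trend, single or known transcripts, GC and clock corrections, a replicate block and leaving out each liver.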

Additional observations from a re-analysis of the deposited data

Results flagged for a closer look

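An assembled transcript on the strand opposite to Pmvk was left out of its sum and drew attention because it was above the HFD livers in every liver given extract or luteolin. It averaged 0.501 FPKM in CLE livers (0.32 to 0.75) and 0.334 FPKM in LU livers (0.279 to 0.4), beside 0.185 to 0.219 FPKM in HFD and 0.172 to 0.469 FPKM in ND livers, whose range overlaps both. This difference was not tested. Groups of 3 are too small for the test of a single far value, and no member differed between CLE and LU livers.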

How the results depend on the processing

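The 10 members called between HFD and ND livers numbered 7 to 10 under the other settings and 7 to 10 with single livers left out, with no change of sign. The share of all genes called ran from 4.19% to 15.8% under the settings and from 5.56% to 14% with single livers left out. Between CLE and HFD the count of 0 became 1 with quantile normalization, median-of-ratios scaling or a filter at 5 FPKM (Sc5d each time). The shares of all genes there were 8.61%, 6.85% and 11.4%. It was 1 (Dhcr7) with the transcript with the highest mean or known transcripts only, beside 2.31% and 4.42%. With single livers left out it ranged from 0 to 5, beside 0.25% to 18.9%. Between LU and HFD the count of 0 became 1 (Nsdhl) in a fit of the 2 groups alone, beside 2.36% of all genes. In such fits of CLE or LU with HFD 27 members were tested, as Sqle was under the filter. With single livers left out the LU count ranged from 0 to 1, beside 0.175% to 4.38%. CLE against ND ranged from 11 to 17 and LU against ND from 9 to 14 with single livers left out, beside 13.1% to 31.6% and 5.34% to 21.4% of all genes. The clock score as a covariate left 1 member in CLE against ND and 1 in LU against ND, beside 0.1% and 0.133% of all genes. It left 6 among the 4 groups, beside 2.27% of all genes (23.6% without the score). It turned Insig2 in CLE against ND from -0.88 to 0.24 (adjusted p = 0.77, limma). The other 14 members called there kept their sign. Some were farther from 0, such as Idi1 at -2.72, Fdps at -2.46 and Stard4 at -2.17. Others were nearer 0, such as Hsd17b7 at -0.52 and Sc5d at -0.39. The cause was not tested. Sums by the deposited gene names, chosen after seeing the table, gave 9 members between HFD and ND, because Tm7sf2 has no row of that name.

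Mouse numbers are shared by ND with CLE and with LU mice. Deviations of same-numbered livers correlated at -0.28 and -0.1 (ND with CLE) and at 0.07 and 0.22 (ND with LU), so the numbers were not taken to pair the mice. A replicate block gave 8 members in CLE against ND and 9 in LU against ND, beside 11 and 13 in fits of the same 2 groups without it, which were added after seeing the data. Over all genes the shares called were 9.16% and 6.36% with the block and 14.6% and 17.4% without it. The block leaves the contrast to the same-numbered livers alone, mice 2 and 4 with CLE and mice 2 and 3 with LU. The median of the members was -0.33 with CLE and -0.72 with LU. HFD mice share no number with other groups, so no block could be fitted there. With 3 livers per group and no known depth, small differences of low members such as Ggps1, Soat1 and Mvk could be missed.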
